A study of Mus musculus with 12 samples.

Results

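The genes described here encode the intracellular kinases and phosphatases through which hormones and stress reach the liver cell: the MAP kinase cascade, the dual-specificity phosphatases, protein kinase A, AMP-activated protein kinase, the PI3K/Akt/mTOR branch, the pyruvate dehydrogenase kinases, and the subunits of protein phosphatase 1 and protein phosphatase 2A. They were selected by a rule on gene names (names that begin with Mapk, Map2k to Map4k, Mekk, Dusp and a digit, Prka, Akt, Pik3, Pdpk, Pdk, Rps6k, Frap, Tsc1, Tsc2, Ppp1r or Ppp2, plus one further Mapk14 probe given by its spot number). The set itself was proposed with earlier results of these data known. The rule found 117 probes for 85 genes, out of 20280 probes on the array and 9073 genes named by them. The arrays came with an older and a newer version of the gene names, and a probe was kept if either version matched, so 80 probes matched in both, 10 in the older version only and 27 in the newer version only.

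As background, glucagon raises cyclic AMP in the fasting liver and frees the catalytic subunits of protein kinase A, which phosphorylate CREB, a factor that binds the cyclic AMP response element of gluconeogenic promoters. Insulin works in the opposite sense through PI3K, PDPK1 and Akt, which hold FOXO1 out of the nucleus and keep mTOR and the S6 kinases active. MAP kinases are switched on by a cascade of MAP3K and MAP2K enzymes and switched off by dual-specificity phosphatases, and most of this regulation is by phosphorylation, which an mRNA measurement does not see.

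Livers came from male FVB mice, 6 weeks old, that were either fed or had their chow removed for 12, 24 or 72 h. Each group had 3 arrays (12 in all), each array carrying Cy3-labelled cDNA from RNA pooled from 2 livers against a common Cy5-labelled reference pooled from 6 fed livers, with no dye swap. All mice were in metabolic cages, an infrared lamp warmed them from 24 h onward, so that warming and fasting time cannot be told apart, and all were killed in the same hour of the morning. Values below are normalized log2 ratios of sample over fed reference, a fold change is a difference between group means of these log2 ratios, and spread is between pools, not between mice. In whole liver, fewer cells of a type and less RNA per cell cannot be told apart.

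The precision of the arrays was uneven. The median sample signal stood 3.5 to 10.6 times above background. It was lowest in its group on the second 12 h array (4.72, beside 5.34 on the first) and the third 24 h array (3.5). The first fed array, quantified on the same day as these 2, was also the lowest of its group, at 7.59 against 10.1 on each other fed array. Only the 12 h and 24 h arrays are called low-signal below, and the first fed array stayed in the fit without them. The other 12 h and 24 h arrays were quantified on a day without any fed array, so for them fasting and day cannot be told apart. All 72 h arrays shared a day with fed arrays 2 and 3, on which the scanner software flagged 24.7% and 14.1% of spots as outliers, leaving 24 and 15 of the 117 probes without a value there. Probes for 5 of 10 hepatocyte markers were found, all well above background on the 12 arrays, and no probe for a marker of hepatocytes, leukocytes, endothelium, stellate cells, bile ducts, red cells, acinar cells or muscle passed the test described below with all arrays. The median log2 ratio of the leukocyte probes ranged from -0.01 to 0.40 on the fed arrays and from -1.04 to 0.08 on the 12 h arrays, and that of the muscle probes from 0.00 to 0.08 and from -0.07 to 1.02. The leukocyte medians lay wholly below those of the fed arrays at 24 h (-0.57 to -0.03) and 72 h (-0.25 to -0.04). At 72 h so did the stellate medians (-0.31 to -0.12 against -0.11 to 0.18) and the muscle medians (-0.15 to -0.04), and at 12 h the hepatocyte medians (-0.10 to -0.07 against 0.02 to 0.21) and the bile duct medians (-0.26 to -0.07 against -0.05 to 0.06). The part of these shifts in the values below was not tested.

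The signalling probes moved little. The median distance of a probe from its fed mean was 0.18 to 0.31 log2 units on the 12 h and 24 h arrays other than the low-signal pair, and 0.13 to 0.21 on the 72 h arrays. On the low-signal 12 h array it was 0.69, with 71 of 112 measured probes at least 1.4-fold from the fed mean, and on the low-signal 24 h array 0.35. All probes on the array behaved in the same way, at 0.63 and 0.35 on these 2 arrays. The 2 low-signal arrays therefore held the largest departures among these genes as among all genes, and the differences at 12 h and 24 h that the text turns on are given with and without them. At 72 h leaving them out changed the error of a difference but not its size.

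**Figure D1:**
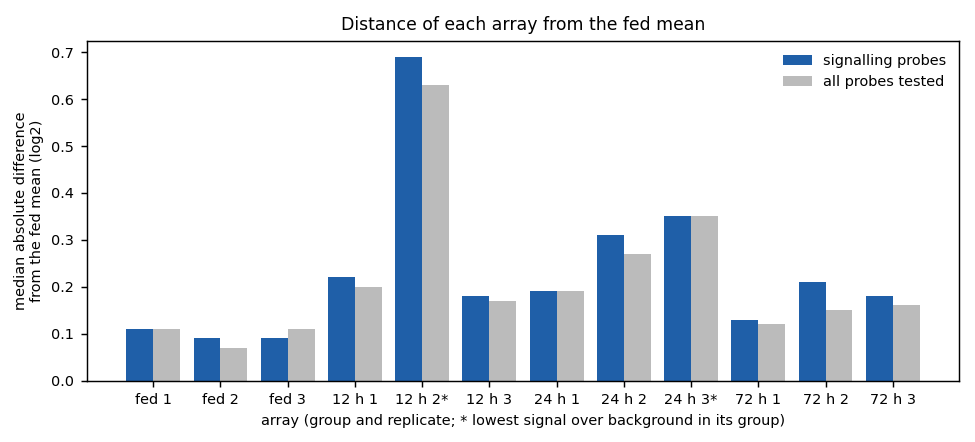
Median absolute difference of each array from the mean of the fed arrays (y axis, log2 units), for the signalling probes (blue bars) and all probes tested (grey bars), by array (x axis). The fed arrays are part of the mean they are compared with. The second 12 h array stands at 0.69 and the third 24 h array at 0.35, and the bars for the signalling probes follow those for all probes.

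Of the 117 probes, 115 were tested, because at least one group had them well above background on each of its arrays, and 103 were so on all 12 arrays. The probes left out, one each for Map3k7 and Map4k4, were well above background on 1 and 3 arrays. With all arrays, limma called none of the 115 at an adjusted p under 0.05 and at least 1.4-fold at 12 h, 24 h or 72 h against fed. The same rule called 0.00497% of all probes at 12 h, 0.00497% at 24 h and 0.00996% at 72 h. Between successive times none was called either, from 12 to 24 h or from 24 to 72 h, where the share of all probes called was 0%. At an unadjusted p under 0.05, whatever the fold, 4, 6 and 3 signalling probes passed at 12, 24 and 72 h against fed, 0 from 12 to 24 h and 4 from 24 to 72 h. Those are 3.48%, 5.22%, 2.61%, 0% and 3.48% of them, beside 3.92%, 3.04%, 1.55%, 0.945% and 3.42% of all probes.

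A looser rule, an unadjusted p under 0.01 by limma with at least 1.4-fold, named 0 probes at 12 h, 1 at 24 h (Dusp16) and 1 at 72 h (Map2k6). It takes its thresholds from the study's methods but not their split-factor analysis of variance. It named 0.656%, 0.641% and 0.428% of all probes, so the signalling shares of 0%, 0.87% and 0.87% are close to the background. The median log2 fold change over the 115 probes was -0.07, 0.00 and 0.00, beside -0.01, 0.00 and -0.01 over all probes. It was 0.01, 0.10 and 0.00 without the low-signal arrays, beside -0.03, -0.01 and -0.01.

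Without the low-signal arrays the same test called 2 signalling probes at 12 h, 13 at 24 h and 2 at 72 h, which is 1.74%, 11.3% and 1.74% of them, beside 2.59%, 8.81% and 0.836% of all probes. At 24 h 9 of the 13 were higher and 4 lower than in fed liver, beside 1049 higher and 725 lower among all probes called. The signalling shares at 12 and 24 h lay near those of all probes, and the 72 h share rests on 2 probes. The 12 h and 24 h calls then compare arrays of different quantification days.

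A fit that kept all arrays and weighted each by its scatter called 14 signalling probes at 12 h, 10 at 24 h and 8 at 72 h. These are 12.2%, 8.7% and 6.96% of them, beside 9.53%, 10.5% and 4.11% of all probes. The low-signal arrays weighed 0.0368 (12 h) and 0.0986 (24 h), so this fit nearly left them out. Fed arrays 1, 2 and 3 weighed 0.546, 7.15 and 1.57, so fed array 2 dominated the fed mean where it had a value. The 12 h and 24 h calls of this fit thus also compare mainly arrays of different quantification days. At 72 h all 8 called were higher, beside 581 higher and 245 lower among all probes called. The 8 were the probes for Map2k6, Dusp1, Ppp2cb, Map3k12, Ppp2ca, Mapk8, Ppp1r3c and Pdpk1. Pdpk1, Ppp1r3c, Mapk14 and a Pik3c2a probe were called higher, and Map3k3 and Pik3cb lower, at both 12 h and 24 h.

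**Figure D2:**
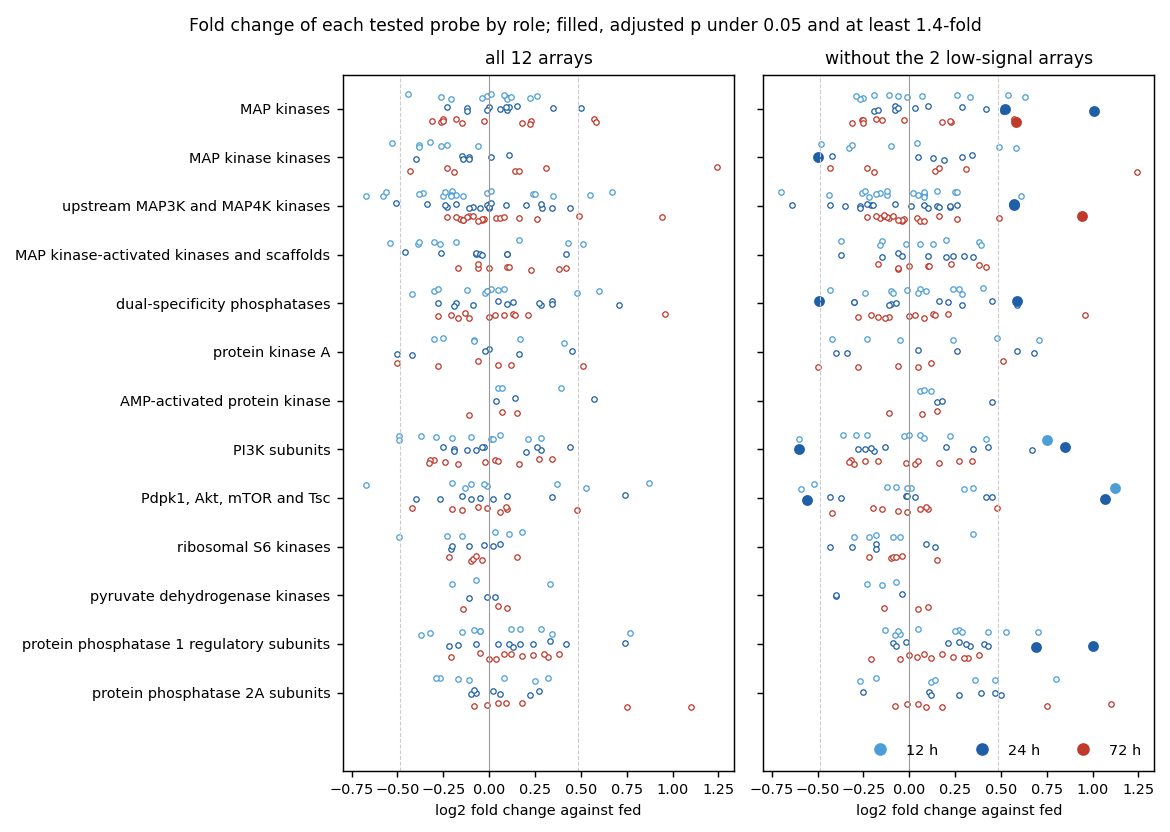
Log2 fold change against fed (x axis) of each tested probe, by role (rows) and time (colours), with all 12 arrays (left) and without the low-signal arrays (right). Filled circles passed an adjusted p under 0.05 and 1.4-fold, and dashed lines mark 1.4-fold. No circle is filled on the left; on the right 2, 13 and 2 are, at 12, 24 and 72 h.

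Among the MAP kinases themselves 12 probes were tested, none passed with all arrays, and their median log2 fold change was 0.05 at 12 h, 0.08 at 24 h and -0.09 at 72 h (-0.04, 0.07 and -0.09 without the low-signal arrays). Mapk14 encodes p38 alpha, the stress-activated kinase that also acts downstream of glucagon. Its log2 ratios were 0.31 and -0.16 on the fed arrays that measured it, 0.63, -1.03 and 0.61 at 12 h, 0.89, 1.28 and -0.45 at 24 h, and 0.11, 0.41 and 0.38 at 72 h. The values at -1.03 and -0.45 are those of the low-signal arrays, and the other 12 h and 24 h arrays lay above both fed arrays. With all arrays the 24 h difference was 0.50 ± 0.57 (SE) on the log2 scale (limma adjusted p = 1), and without the low-signal arrays it was 1.01 ± 0.19 (adjusted p = 0.0165), a 2.01-fold higher level. Within the one day that held a fed array beside a 24 h array, the difference had the opposite sign, at -0.76. At 72 h it was 0.22 ± 0.57 (adjusted p = 1).

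Mapk3 encodes ERK1, a kinase at the end of the growth-factor cascade. Its probe stayed between -0.47 and 0.34 on every array, with log2 fold changes of -0.04, 0.00 and -0.03. The highest value was that of the low-signal 12 h array, and without the low-signal arrays the 12 h and 24 h differences were -0.27 (adjusted p = 0.24) and -0.08.

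Mapk8 encodes JNK1, a stress kinase. One of its 2 probes (A_65_P05437) read 0.02, -0.05 and -0.18 in fed liver and 0.42, 0.68 and 0.44 at 72 h, so the 72 h arrays all lay above the fed arrays. The difference was 0.58 ± 0.24 with all arrays (adjusted p = 1), 0.58 ± 0.11 without the low-signal arrays (adjusted p = 0.0433), and 0.63 within the shared quantification day. The other Mapk8 probe (A_65_P05523) went the other way, from 0.08, -0.11 and -0.15 in fed liver to -0.24, -0.34 and -0.36 at 72 h, also without overlap (-0.25 ± 0.25, adjusted p = 1). The 2 probes thus gave Mapk8 opposite directions at 72 h. Mapk9, which encodes JNK2, was lower on both of its probes at 72 h, by 0.31 and 0.15 log2 units, and did not pass.

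Of the MAP kinase kinases, 7 probes were tested and none was called with all arrays. Map2k6 encodes MKK6, the direct activator of p38, and one of its probes (A_65_P07252) had the largest 72 h difference of all 115. It read 0.16, 0.07 and 0.19 in fed liver, -0.49, -0.04 and -0.21 at 12 h, 0.33, 0.32 and 0.09 at 24 h, and 1.47, 2.28 and 0.40 at 72 h. All 72 h arrays lay above all fed arrays, but they spread over nearly 2 log2 units. The difference was 1.24 ± 0.36 on the log2 scale, 2.37-fold, with an adjusted p of 1 by limma with all arrays and of 0.132 without the low-signal arrays. With array weights it was 1.39 and was called (adjusted p = 0.0214). It was 1.25 within the shared quantification day. The second Map2k6 probe (A_65_P17748), which only the newer gene names assign to Map2k6, read 0.10 and 0.10 in fed liver and -0.05 and -0.21 on the 72 h arrays that measured it, a difference of -0.23 ± 0.19 (adjusted p = 1). At 24 h this second probe was lower, by 0.50 log2 units without the low-signal arrays (adjusted p = 0.0363), while the first was 0.19 higher (adjusted p = 0.772). With array weights neither Map2k6 probe was called at 24 h.

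Map2k1 and Map2k2 encode MEK1 and MEK2, which activate ERK. One Map2k1 probe (A_65_P17605) was lower on every 72 h array (-0.20, -0.35, -0.55) than on every fed array (0.39, -0.17, -0.02), by 0.43 log2 units, and the other Map2k1 probe was 0.14 higher. Neither passed. Map2k2 read 1.01, 0.55 and -0.01 in fed liver, a spread wider than any of its differences from fed.

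Upstream of these, 19 probes for MAP3K and MAP4K kinases were tested. Map3k12 encodes DLK, an activator of the JNK branch. Its probe A_65_P15358 read 0.24, 0.11 and -0.09 in fed liver, 0.37, 1.57 and 0.33 at 12 h, 0.38, 0.32 and 0.89 at 24 h, and 0.78, 1.5 and 0.79 at 72 h. Every fasted array lay above every fed array, and the 12 h and 24 h values that stand out are those of the low-signal arrays. At 72 h the difference was 0.94 ± 0.33 with all arrays (adjusted p = 1), 0.94 ± 0.18 without the low-signal arrays (adjusted p = 0.0414; 1.91-fold) and 1.01 within the shared day. The second Map3k12 probe was measured on 1 fed array only and differed by 0.26 ± 0.32 at 72 h.

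Map3k1, which encodes MEKK1, and Map4k3, a kinase of the amino acid response, passed at 24 h without the low-signal arrays. Map3k1 probe A_65_P05116 was 0.57 ± 0.12 higher (adjusted p = 0.0203) and read -0.14, -0.07 and -0.04 at 72 h. It was also the one signalling probe called between 24 and 72 h in that fit. The other Map3k1 probe differed by 0.15 ± 0.13 at 24 h (adjusted p = 0.459). Map4k3 was 0.57 ± 0.15 higher at 24 h (adjusted p = 0.0358), and its 72 h arrays (0.19, 0.59, 0.41) lay above its fed arrays (-0.19, 0.14, -0.24) with a difference of 0.49 ± 0.13 (adjusted p = 0.119). Map3k3, which encodes MEKK3, had the lowest 12 h and 24 h values of the tier without the low-signal arrays, at -0.70 and -0.64, with adjusted p = 0.0705 and 0.0543. With array weights only 1 probe of the tier was called higher at 24 h, and Map3k3 was called lower. None of the 9 probes for MAP kinase-activated kinases and scaffolds (Mapkapk2, Mapkapk5, Mapk8ip1, Mapk8ip3, Mapkbp1 and Lamtor3) passed with all arrays or without the low-signal arrays, and with array weights a Mapkapk2 probe (-0.49, adjusted p = 0.0167) and a Mapkapk5 probe (0.53, adjusted p = 0.0178) did at 12 h.

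The dual-specificity phosphatases dephosphorylate and silence MAP kinases, and 12 probes for 9 of their genes were tested. Dusp16 encodes a phosphatase that prefers JNK and p38. One of its probes (A_65_P19679) read -0.08, 0.17 and -0.12 in fed liver, 0.16, 0.88 and 0.36 at 12 h, 0.49, 0.68 and 0.93 at 24 h, and -0.06, 0.20 and 0.07 at 72 h. The 24 h arrays all lay above the fed arrays, and the 72 h values overlapped with the fed values. The 24 h difference was 0.71 ± 0.20 with all arrays, 1.63-fold, which met the looser rule but had an adjusted p of 1, and 0.59 ± 0.13 without the low-signal arrays (adjusted p = 0.0245). With array weights this probe was not called at 24 h. The difference of the low-signal 24 h array from the fed array of its day was 1.01, in the same direction. The second Dusp16 probe differed by 0.13 ± 0.23 at 24 h, and by -0.11 without the low-signal array.

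Dusp1 encodes MKP-1, an inducible phosphatase of p38 and JNK. It read 0.41 and -0.09 on the fed arrays that measured it, 0.33, -1.52 and 0.78 at 12 h, 1.03, 0.46 and -0.19 at 24 h, and 1.14, 1.67 and 0.53 at 72 h. The 72 h arrays lay above both fed arrays, by 0.96 ± 0.63 log2 units with all arrays (1.94-fold, adjusted p = 1) and by 0.96 ± 0.31 without the low-signal arrays (adjusted p = 0.205). With array weights it was called at 24 h (0.98, adjusted p = 0.0256) and 72 h (1.24, adjusted p = 0.0164). Its 12 h and 24 h differences without the low-signal arrays were 0.40 and 0.59 and did not pass. One of 2 Dusp14 probes was 0.49 lower at 24 h in that fit (adjusted p = 0.0295). Dusp6, the ERK phosphatase, and Dusp9 did not pass at any time in either fit, and Dusp9 read 1.65 and 0.34 on its 2 measured fed arrays.

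Dusp1 is one of 4 of these genes with a full cyclic AMP response element (TGACGTCA, which reads the same on both strands) in the 250 bases before a start site. RefSeq promoters on build GRCm38.p6 matched 71 of the 85 genes with 104 start sites, of which 4 (3.85%) held the element, against 508 of 32851 start sites (1.55%) of all genes. The stretches of 60 bases around it are shown 5′ to 3′ on the strand of the gene with the element in capitals, because this is the sequence that CREB, the substrate of protein kinase A, is known to bind.
Dusp1, chr17:26508582-26508641, minus strand: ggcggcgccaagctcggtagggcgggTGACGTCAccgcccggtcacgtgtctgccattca
Ppp2ca, chr11:52098764-52098823, plus strand: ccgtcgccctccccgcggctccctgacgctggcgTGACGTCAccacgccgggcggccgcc
Prkar1a, chr11:109650874-109650933, plus strand: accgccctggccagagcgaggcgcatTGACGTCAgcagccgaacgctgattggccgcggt
Dusp8, chr7:142095358-142095417, minus strand: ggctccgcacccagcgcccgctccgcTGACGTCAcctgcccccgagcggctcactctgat

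The element lay 135 bases before the start in Dusp1, 18 in Ppp2ca, 41 in Prkar1a and 99 in Dusp8. These 4 genes did not move alike. At 72 h Dusp1 and Ppp2ca differed from fed by 0.96 and 0.75 log2 units, Dusp8 by 0.03, and the 2 Prkar1a probes by -0.28 and 0.05. None was called at 72 h with all arrays or without the low-signal arrays. With array weights Dusp1 and Ppp2ca were called at 72 h, and Dusp8 and Prkar1a were not. The match is a description of sequence only.

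Protein kinase A was represented by the catalytic subunit gene Prkacb and 4 regulatory subunit genes, with 6 probes, and none was called at any time with all arrays or without the low-signal arrays. With all arrays the log2 fold changes ran from -0.30 to 0.41 at 12 h, -0.50 to 0.45 at 24 h and -0.50 to 0.51 at 72 h. At 24 h the decrease of -0.50 was the only one of these differences to reach 1.4-fold. Without the low-signal arrays they ran from -0.42 to 0.71 at 12 h and -0.40 to 0.68 at 24 h. Prkar2a encodes the RII alpha regulatory subunit. It read 0.02, 0.15 and -0.26 in fed liver, 0.81, -0.95 and 0.55 at 12 h, 0.39, 0.91 and -0.05 at 24 h, and 0.06, 0.63 and 0.75 at 72 h. Without the low-signal arrays it was 0.71 ± 0.22 higher at 12 h (adjusted p = 0.101) and 0.68 ± 0.22 at 24 h (adjusted p = 0.0727), and with array weights it was called at 12 h (0.62, adjusted p = 0.0191). Prkacb was 0.59 ± 0.17 higher at 24 h without the low-signal arrays (adjusted p = 0.0541), and 0.16 ± 0.47 with all arrays. Of Prkar1a, one probe read -0.33, -0.53 and -0.34 at 72 h, below all fed arrays (-0.20, -0.08, -0.07), and the other did not separate the groups.

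AMP-activated protein kinase, the sensor of a falling energy charge, was represented by the beta subunits Prkab1 and Prkab2 and the gamma subunit Prkag1. No probe carried the name of a catalytic alpha subunit. Prkab2 read 0.53, -0.01 and -0.05 in fed liver and 0.59, 0.62 and 0.96 at 24 h, without overlap, a difference of 0.57 ± 0.25 (1.48-fold, adjusted p = 1). Without the low-signal arrays it was 0.45, 1.36-fold (adjusted p = 0.103), and with array weights 0.59, which was called (adjusted p = 0.0029). It read -0.06, 0.11 and 0.09 at 72 h. Prkab1 stayed between -0.08 and 0.16 on all 11 arrays that measured it, the narrowest range among the named genes of this enzyme, and Prkag1 differed from fed by 0.04 to 0.15 (0.08 to 0.18 without the low-signal arrays).

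In the insulin branch, Pdpk1 had the largest 12 h difference of all 115 probes. It encodes PDPK1, the kinase that phosphorylates Akt, S6 kinase and related enzymes in their activation loop. It read 0.33, 0.19 and -0.12 in fed liver, 1.31, 0.50 and 1.19 at 12 h, 1.19, 1.23 and 0.22 at 24 h, and 0.17, 0.95 and 0.73 at 72 h. The 12 h arrays all lay above the fed arrays, as did the 24 h arrays except the low-signal one. With all arrays the differences were 0.87 ± 0.32 at 12 h (1.82-fold, adjusted p = 0.956), 0.74 ± 0.32 at 24 h and 0.48 ± 0.32 at 72 h (adjusted p = 1 for both). Without the low-signal arrays they were 1.12 ± 0.20 at 12 h (2.17-fold, adjusted p = 0.027) and 1.07 ± 0.20 at 24 h (2.1-fold, adjusted p = 0.0152). Within the day shared with the first fed array they were 0.17 and -0.11.

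Akt1 and Akt2 encode kinases that carry the insulin signal onward, and none of their probes was called in either fit. Akt2 differed from fed by -0.20, -0.10 and -0.01, and the 2 Akt1 probes differed from each other in sign at 12 h and 24 h. Without the low-signal arrays the Akt2 differences were -0.07 and -0.02 at 12 h and 24 h, and the Akt1 probes gave 0.35 and 0.01 at 12 h and 0.42 and -0.37 at 24 h.

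Of the 11 probes for PI3K subunits, Pik3c2a and Pik3cb moved without the low-signal arrays. One of 3 probes for Pik3c2a, a class II PI3K, read -0.30 and -0.12 in fed liver, 0.45, -0.87 and 0.63 at 12 h and 0.63, 0.65 and -0.59 at 24 h. It passed in that fit at 12 h (0.75 ± 0.15, adjusted p = 0.0389) and 24 h (0.85 ± 0.15, adjusted p = 0.0145), but its sign within the shared day was negative at both times (-0.57 and -0.29). Pik3cb, which encodes the p110 beta catalytic subunit, read -0.09, -0.27 and -0.29 in fed liver, -0.82, -0.80 and 0.75 at 24 h, and -0.36, -0.64 and -0.60 at 72 h. It was 0.60 lower at 24 h without the low-signal arrays (adjusted p = 0.045) and 0.07 lower with them. Its 72 h arrays lay below all fed arrays, by 0.32 ± 0.52 (adjusted p = 1). Pik3ca, Pik3r1 and Pik3r2 did not pass in either fit.

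Mtor, the growth kinase at the end of this branch, Tsc1 and Tsc2, its inhibitors, and the S6 kinase genes did not pass in these fits either, while one Tsc1 probe did at 12 h with array weights (-0.58, adjusted p = 0.036). Mtor read 0.22 and 0.23 in fed liver and 0.11, -1.55 and 0.11 at 12 h, so its 12 h difference of -0.67 rested on the low-signal array and was -0.12 without it. Rps6kb1, the main mTOR substrate among the S6 kinases, was 0.43 ± 0.11 lower at 24 h without the low-signal arrays, with an adjusted p of 0.0379 but below 1.4-fold.

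The pyruvate dehydrogenase kinases switch off glucose oxidation, and Pdk4 is widely known to rise with fasting. On these arrays its probe (A_65_P20788), well above background on every array, read -0.19 and 0.05 in fed liver, -0.21, 0.03 and -0.22 at 12 h, -0.26, -0.67 and 0.40 at 24 h, and 0.08, -0.03 and -0.12 at 72 h. The log2 fold changes were -0.07, -0.11 and 0.05 (adjusted p = 0.981, 1 and 1). The 0.40 is that of the low-signal array, and the other 24 h arrays lay below both fed arrays. The 24 h difference without the low-signal arrays was -0.40 (adjusted p = 0.124) and that at 12 h -0.15 (adjusted p = 0.622), and no difference passed the test in either fit. Pdk2 and Pdk3 did not pass either.

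The regulatory subunits of protein phosphatase 1 direct the enzyme to its substrates, among them those that bring it to glycogen. Ppp1r3c encodes such a glycogen-targeting subunit. It read 0.37, -0.04 and 0.03 in fed liver, 0.71, -1.18 and 0.59 at 12 h, 1.23, 1.01 and 0.34 at 24 h, and 0.08, 0.74 and 0.68 at 72 h. The 24 h difference was 0.74 ± 0.45 with all arrays (adjusted p = 1) and 1.00 ± 0.20 without the low-signal arrays, 2.0-fold (adjusted p = 0.0169). Within the shared day it was -0.02. Ppp1r3b, the other glycogen-targeting subunit on the array, was 0.33 ± 0.18 higher at 24 h (0.31 without the low-signal arrays) and did not pass.

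Ppp1r14b, an inhibitor of the phosphatase, was above all fed arrays at 12 h (1.03, 1.09 and 0.72 against 0.26, 0.39 and -0.13), by 0.77 ± 0.38 (1.71-fold, adjusted p = 0.956), and by 0.70 without the low-signal array (adjusted p = 0.075). At 24 h it read 0.69, 1.05 and, on the low-signal array, -0.71, and it passed without that array (0.69 ± 0.19, adjusted p = 0.0465). With array weights Ppp1r14b was not called at 24 h. Both probes for Ppp1r12a, the myosin-targeting subunit, were higher at every time, by 0.12 to 0.42, which is below 1.4-fold, and by 0.18 to 0.43 without the low-signal arrays. One of them (A_65_P13431) was called at 12 h with array weights, at 0.52 (adjusted p = 0.00617).

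The catalytic subunits of protein phosphatase 2A, which opposes Akt and many other kinases, are encoded by Ppp2ca and Ppp2cb. Ppp2cb read 0.28, 0.34 and -0.18 in fed liver, 0.96, -2.28 and 0.93 at 12 h, 0.64, 0.60 and -0.62 at 24 h, and 1.19, 1.85 and 0.71 at 72 h. Ppp2ca read 0.32, 0.17 and 0.01 in fed liver, 0.75, -1.10 and 0.51 at 12 h, 0.49, 0.63 and -0.84 at 24 h, and 1.01, 1.4 and 0.33 at 72 h. In both genes every 72 h array lay above every fed array, and the low-signal arrays were the lowest of all. At 72 h Ppp2cb differed by 1.10 ± 0.75 with all arrays (2.15-fold, adjusted p = 1), by 1.10 ± 0.24 without the low-signal arrays (adjusted p = 0.0672) and by 1.17 within the shared day. Ppp2ca differed by 0.75 ± 0.51 (1.68-fold, adjusted p = 1), 0.75 ± 0.22 (adjusted p = 0.145) and 0.82. With array weights both were called, at 1.09 (adjusted p = 0.0209) and 0.81 (adjusted p = 0.0352). The scaffold and regulatory subunit probes (Ppp2r1a and Ppp2r5c, 5 probes) differed by -0.08 to 0.18 at 72 h.

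**Figure D3:**
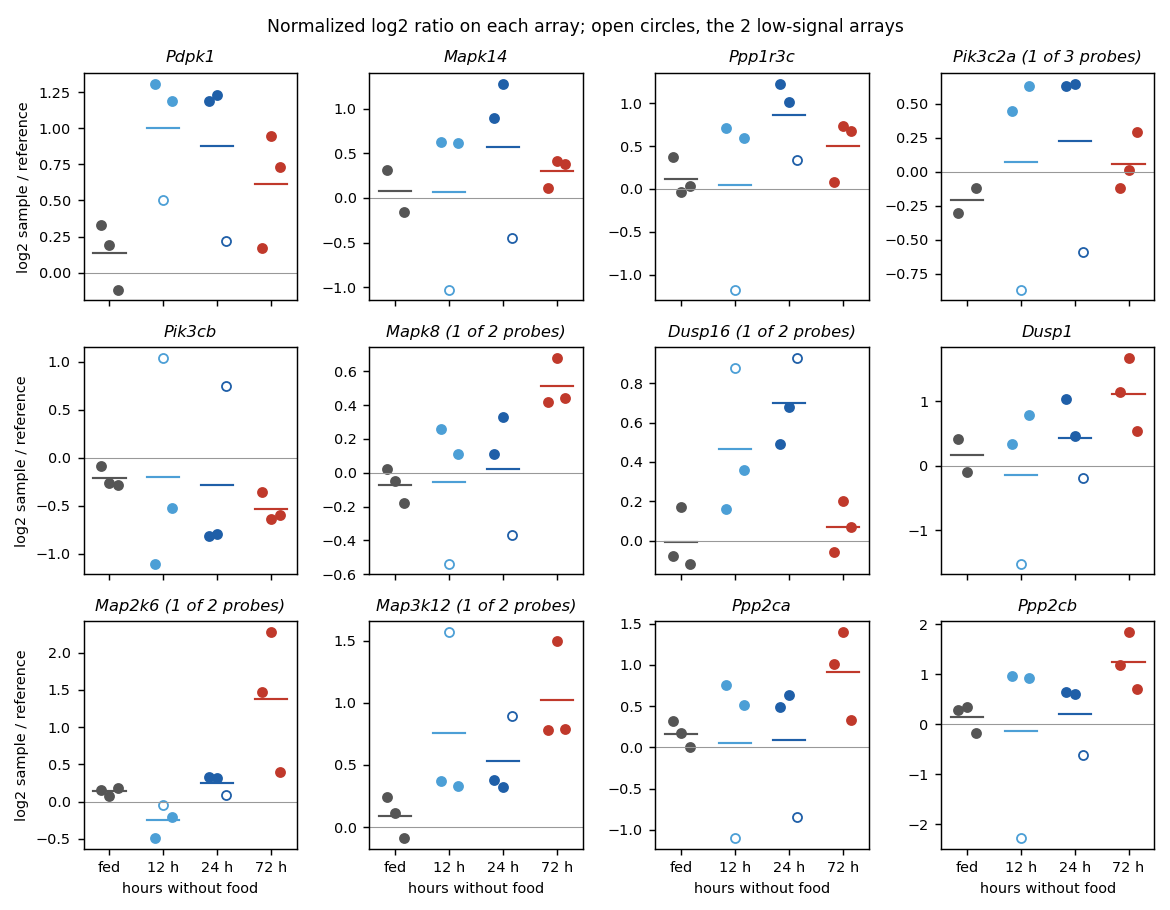
Normalized log2 ratio of sample over fed reference (y axis) on each array by group (x axis) for 12 probes. Points are arrays, horizontal lines are group means over the arrays measured, and open circles are the low-signal arrays. The open circles lie apart from the other arrays of their group in most panels, and the 72 h points of Map2k6, Mapk8, Map3k12, Ppp2ca and Ppp2cb lie above all their fed points.

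Over the 72 h comparison, 73 signalling probes were tested and measured on all 72 h and fed arrays. In 11 of them (15.1%) all 72 h arrays lay above all fed arrays, beside 9.2% of all such probes, and in 8 (11%) below, beside 9.66%. Of the 11, those of at least 1.4-fold were the probes for Map2k6, Ppp2cb, Map3k12, Ppp2ca, Mapk8 and Map4k3 described above. None of the 8 reached 1.4-fold.

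Different probes of the same gene often disagreed. For 25 genes with several tested probes, all probes had the same sign in 12 genes at 12 h, 9 at 24 h and 11 at 72 h, with a median spread between probes of 0.37, 0.24 and 0.26 log2 units. None of these differences was called, and the same count was not made over all genes on the array. The same sign held in 14, 13 and 11 genes without the low-signal arrays. The widest spread at 72 h was that of Map2k6, at 1.47, followed by Mapk8 and Map3k12. A change on 1 probe of such a gene is therefore a measurement of that probe rather than of the gene.

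**Figure D4:**
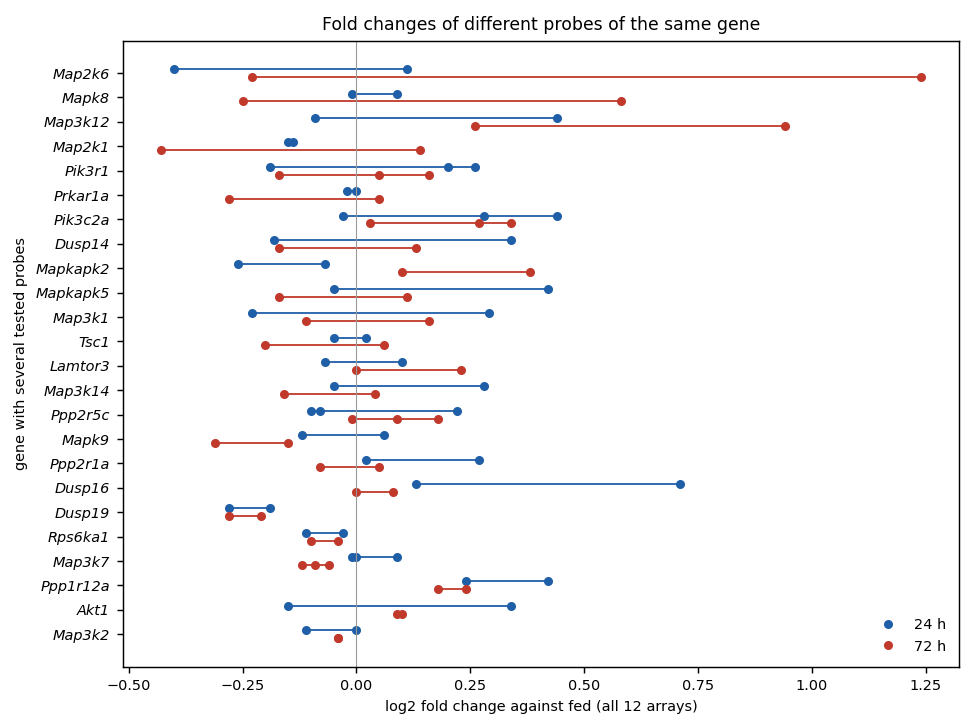
Log2 fold change against fed with all 12 arrays (x axis) of the different probes of the same gene (24 genes in rows), at 24 h (blue) and 72 h (red). Lines join the probes of one gene, ordered by their spread at 72 h. Map2k6 at the top spans -0.23 to 1.24 at 72 h, and the lines of many genes cross 0.

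Genes around these pathways gave a scale for the size of these differences. Those given with values were picked after their values were seen. Without the low-signal arrays the median log2 fold changes at 12, 24 and 72 h were 0.12, 0.27 and 0.07 around cyclic AMP. They were 0.25, 0.34 and 0.13 around insulin, Akt and mTOR, and 0.11, 0.22 and 0.01 around the MAP kinases. Of 20 genes of cyclic AMP signalling, 12 had a probe. With all arrays, none of their 14 probes was called at any time, and without the low-signal arrays 1, 1 and 2 were, all higher, at 12, 24 and 72 h. In the latter fit 2.59%, 8.81% and 0.836% of all probes were called at these times. Of those, 342, 1049 and 138 probes were higher and 180, 725 and 30 lower. Pck1, the gluconeogenic target of protein kinase A, read 0.31 and 0.30 in fed liver, 1.17 and 1.46 at 12 h, 1.48, 1.35 and 0.54 at 24 h, and 1.02, 1.32 and 1.21 at 72 h. All its measured fasted arrays lay above the fed ones, and it passed without the low-signal arrays at 12 h (2.02-fold, adjusted p = 0.016), 24 h (2.17-fold, adjusted p = 0.00556) and 72 h (1.84-fold, adjusted p = 0.0221). Pde3b, the phosphodiesterase through which insulin lowers cyclic AMP, was 1.77-fold higher at 72 h (adjusted p = 0.0311 in that fit). In the same fit 6, 5 and 6 of the 14 probes were lower at 12, 24 and 72 h. Among them was Ppargc1a, at -0.30, -0.44 and -0.15, which was not called.

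Of 22 genes around insulin, Akt and mTOR, 15 had a probe. None of their 21 probes was called with all arrays, and 0, 3 and 2 were without the low-signal arrays, all higher. The shares of all probes called in that fit were 2.59%, 8.81% and 0.836%. Ddit4, which restrains mTOR, read 0.06, 0.13 and -0.10 in fed liver, 0.99, -0.09 and 1.73 at 12 h, 3.25, 1.23 and 0.23 at 24 h, and 3.82, 4.14 and 2.18 at 72 h. Its 72 h arrays lay far above the fed ones, 10.2-fold, with an adjusted p of 0.754 with all arrays and 0.0237 without the low-signal pair. Foxo1, the factor that Akt excludes from the nucleus, passed in that fit at 24 h (1.71-fold, adjusted p = 0.0264) and 72 h (1.88-fold, adjusted p = 0.0339). In the same fit 8, 7 and 8 of the 21 probes were lower at 12, 24 and 72 h.

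Of 22 genes around the MAP kinases, 18 had a probe, and none of their 28 probes was called with all arrays. Without the low-signal arrays 1, 3 and 0 were, all higher, beside 2.59%, 8.81% and 0.836% of all probes. Egr1, an immediate early target of ERK, read 0.12, 0.04 and -0.21 in fed liver, 3.29, 3.97 and 1.13 at 12 h, 2.59, 2.58 and 0.28 at 24 h, and 1.02, 1.69 and 1.19 at 72 h. Every fasted array lay above every fed array. It was 7.03-fold higher at 12 h with all arrays (adjusted p = 0.956), and 4.68-fold (adjusted p = 0.0373) and 6.09-fold (adjusted p = 0.0127) higher at 12 h and 24 h without the low-signal arrays. In the latter fit 8, 7 and 14 of the 28 probes were lower at 12, 24 and 72 h. The Fos probes gave -0.22 and 0.24 at 12 h and -0.14 and 0.39 at 24 h in that fit, and neither was called. With all arrays, the Egr1 differences at 12 h and 24 h and the Ddit4 differences at 24 h and 72 h were larger than that of any signalling probe at the same time.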

How the data were processed

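Livers of fed mice and of mice fasted for 12, 24 or 72 h were measured on 12 two-colour 60-mer arrays. Per the file headers, the authors' scanner software (Feature Extraction 6.1.1) gave each spot's median intensity and background intensity in both channels and a log10 ratio of Cy5 over Cy3. No genome build is named. The deposited value table holds the same log10 ratio with the sign turned and served only to check the direction.

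From the intensities, background was corrected with normexp (offset 50), the 24 channels were quantile normalized, spots with an outlier flag were dropped, and log2 sample over reference was fitted with limma 3.58.1 in R 4.3.3 over all arrays (20081 to 20116 probes, Benjamini-Hochberg adjustment). A probe was tested if its Cy3 signal was well above background on each array of some group, and called at an adjusted p under 0.05 and at least 1.4-fold. All arrays had the same dye orientation, so a dye effect cancels between groups but stays in a single ratio. Arrays differ in signal over background, and their number limits the precision.

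Groups came from the sample titles. Quantification day came from the file headers. The members, the pathway lists and the alternatives were chosen with earlier results of these data known. The text draws on a fixed list of pathway genes, some of which it covers only within the counts of their group. It also names every member at an unadjusted p under 0.01 and 1.4-fold, and up to 6 further non-overlapping members per direction and time. Other genes named (Pik3c2a, Dusp14, Dusp8, Map3k3, Ppp1r12a and the surrounding genes given with values) were picked from their groups after their values were seen. Single values of 2 member genes, which stay in the counts, are not reported here.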

Additional observations from a re-analysis of the deposited data

How the results depend on the processing

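The count of signalling probes called, 0 in each of the 5 comparisons with all arrays, stayed at 0 with loess within each array, the scanner's log ratio, the sample channel alone, an offset of 16, no filter, a filter on all 12 arrays, kept outlier spots, or any single array left out. At 12, 24 and 72 h against fed and from 24 to 72 h it was 2, 13, 2 and 1 without both low-signal arrays (522, 1774, 168 and 262 of all probes), and 14, 10, 8 and 4 with array weights (1916, 2113, 826 and 856). In the absence of both arrays it was 4, 6, 2 and 1 with loess (824, 1201, 220 and 155) and 3, 11, 0 and 1 with the scanner's log ratio (722, 2048, 52 and 280), both chosen after seeing the data. A block for the quantification day gave 36, 18, 0 and 13 (4543, 2393, 4 and 1862). In that fit the 12 h and 24 h groups are tied to fed liver, by construction, only through the day of the low-signal arrays, which held 1 fed array. The other 12 h and 24 h arrays enter through their difference from each other. From 12 to 24 h it was 0 in every fit.

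By the looser rule (0, 1 and 1 signalling probes and 132, 129 and 86 of all probes at 12, 24 and 72 h), these counts became 9, 15 and 6 (1431, 2164 and 801) without both low-signal arrays, 9, 9 and 7 (1588, 1772 and 1016) with loess added, 12, 18 and 7 (2011, 2805 and 965) with the scanner's log ratio added, 14, 10 and 10 (1921, 2097 and 1113) with array weights, and 30, 24 and 2 (4224, 3054 and 377) with day as a block. The sample channel alone gave 1 and 3 (243 and 203) at 12 and 24 h, the filter on all 12 arrays gave 0 (109) at 24 h, and loess and the scanner's log ratio gave 3 and 2 (187 and 101) at 72 h. Leaving out 1 array gave 0 to 2, 0 to 2 and 0 to 3. The 24 h count was 0 without fed array 1, fed array 3 or 24 h array 2. The 72 h count was 0 without any 1 of the fed arrays or without 72 h array 1 or 2, so the Map2k6 result depends on each of these, and the cause was not tested.

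The median log2 fold change of the signalling probes moved beyond the spread between arrays in these fits: -0.26 at 12 h and -0.18 at 24 h with day as a block, 0.06 at 12 h with loess and 0.10 and, with the scanner's log ratio, 0.13 at 24 h, all 3 without both low-signal arrays, and at 72 h 0.05 with loess in either set of arrays, 0.04 with the scanner's log ratio in either set, and 0.03 with the filter on all 12 arrays or day as a block. Leaving out 1 array gave -0.12 to 0.01, -0.02 to 0.10 and 0.00 to 0.03.

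Some named genes were called with the sign opposite to that with all arrays. At 12 h array weights gave Pik3cb -0.59, Ppp1r3c 0.65 and Mapk14 0.65. Day as a block gave 1.05 for a Tsc1 probe at 12 h, and 1.05 for a Prkar1a probe, -0.76 for Tsc2 and 0.93 for Pik3cb at 24 h.

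Same-numbered arrays came from different mice. Their deviations from the group means correlated at 0.101 to 0.457 between fed and 24 h, and in each other pair of groups at least 1 of the 3 correlations was below 0. The replicate block left 0 signalling probes called in each comparison and 0, 1 and 1 by the looser rule.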
